A study of Mus musculus with 6 samples.

Results

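The Toll-like receptors and their adaptor form a set of 10 genes among the 48440 genes of the read count table. The set was chosen by gene symbol and holds 4 receptors of the cell surface (Tlr1, Tlr2, Tlr4 and Tlr6), 5 receptors of endosomes (Tlr3, Tlr7, Tlr8, Tlr9 and Tlr13) and the adaptor Myd88. It was chosen with earlier results of these data known. Murine tissue surrounding engineered cartilage was sequenced as bulk RNA from 6 samples, 3 of the 0%-Axitinib group and 3 of the 3%-Axitinib group, to learn how local release of the drug changed that tissue. In both groups, cartilage engineered from rabbit bone marrow mesenchymal stem cells on a PLGA scaffold (BEC) was wrapped in an electrospun PCL/collagen membrane, placed under the skin of BALB/c nude mice and harvested with the entangled murine tissue after 12 weeks. The membranes held axitinib, an inhibitor of VEGF receptor kinases, at 0% or 3% of the weight of PCL and collagen. The methods give male mice of 6 to 8 weeks at purchase. Nude mice lack a functional thymus and so most mature T cells, while their macrophages, dendritic cells, neutrophils and B cells are retained. The labels call the first group untreated, and it was read as the 0%-Axitinib group because the protocol attached to every sample describes membranes with 0% or 3% of the drug. Each mouse carried a pair of constructs of the same group, and which samples shared a mouse is not given, so the p-values below measure only the spread between these samples, which may be technical.

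Toll-like receptors are sensors of the innate immune system that bind molecules of microbes and some molecules set free by damaged tissue. Receptors of the cell surface bind mainly microbial lipids and lipoproteins, whereas receptors of endosomes bind RNA or DNA. Apart from Tlr3, the receptors of the set signal through Myd88 to the IRAK kinases, Traf6 and the transcription factors NF-kB and AP-1, and Tlr3 signals through Ticam1 (TRIF), which Tlr4 also uses. Macrophages and dendritic cells carry most of these receptors, and macrophages gather at implanted materials.

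The libraries held between 9225518 and 18403795 reads on genes, and a count of 3, taken as the limit of detection, stood for between 0.157 and 0.330 CPM (counts scaled to library size after TMM normalization), a limit that covers counting error only. Unmapped reads made up 5.47%, 3.84% and 14.9% of the reads of 0%-Axitinib replicates 1, 2 and 3, and 48.4%, 29.2% and 16.8% of those of 3%-Axitinib replicates 1, 2 and 3. The implants held rabbit cells, and whether rabbit reads were counted on mouse genes was not tested. The labelled tissue expressed its markers in every sample, with 7 of 7 fibroblast genes detected and summed levels of 26395, 13119 and 10235 CPM in the 0%-Axitinib group and 22786, 70727 and 25448 CPM in the 3%-Axitinib group, led by Col1a1, the 1 gene of the list that met the criterion of the study (higher). Here and below, a list is led by the gene with the highest CPM as a mean over the 6 samples, which need not lead in each sample. Single libraries stood apart by markers of other tissues. The summed level of 9 neutrophil genes was 16812 CPM in 0%-Axitinib replicate 3 and between 38.4 and 76.7 CPM in the other 5 samples, led by Ngp, a granule protein gene, and Ly6g, Mpo and Elane were at 0 in 0%-Axitinib replicate 2. The 8 B cell genes, led by Cd79a, summed to 300 CPM in 0%-Axitinib replicate 3, to 8.46 and 12.2 CPM in replicates 1 and 2 of that group and to between 1.56 and 3.28 CPM in the 3%-Axitinib group. The 6 keratinocyte genes, led by Krt1, summed to 950 CPM in 0%-Axitinib replicate 2 and to between 4.54 and 7.93 CPM elsewhere, and Krt5, Krt14 and Krt1 were at 0 in the other 0%-Axitinib samples. Of the 3 keratinocyte genes tested, 2 were lower in the 3%-Axitinib group. The 16 skeletal muscle genes, led by Acta1, summed to 16386 and 9558 CPM in 3%-Axitinib replicates 1 and 3, to 186 CPM in 0%-Axitinib replicate 1 and to between 23.1 and 26.1 CPM in the other samples, and 13 of the 15 tested were higher in the 3%-Axitinib group. With limma-voom, 0 of the 15 tested muscle genes were higher. Ckm, Myh4 and Pvalb were at 0 in 3%-Axitinib replicate 2. These lists are shown for each sample in the plot of marker levels, and their part in the results on the receptors was not tested.

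**Figure D1:**
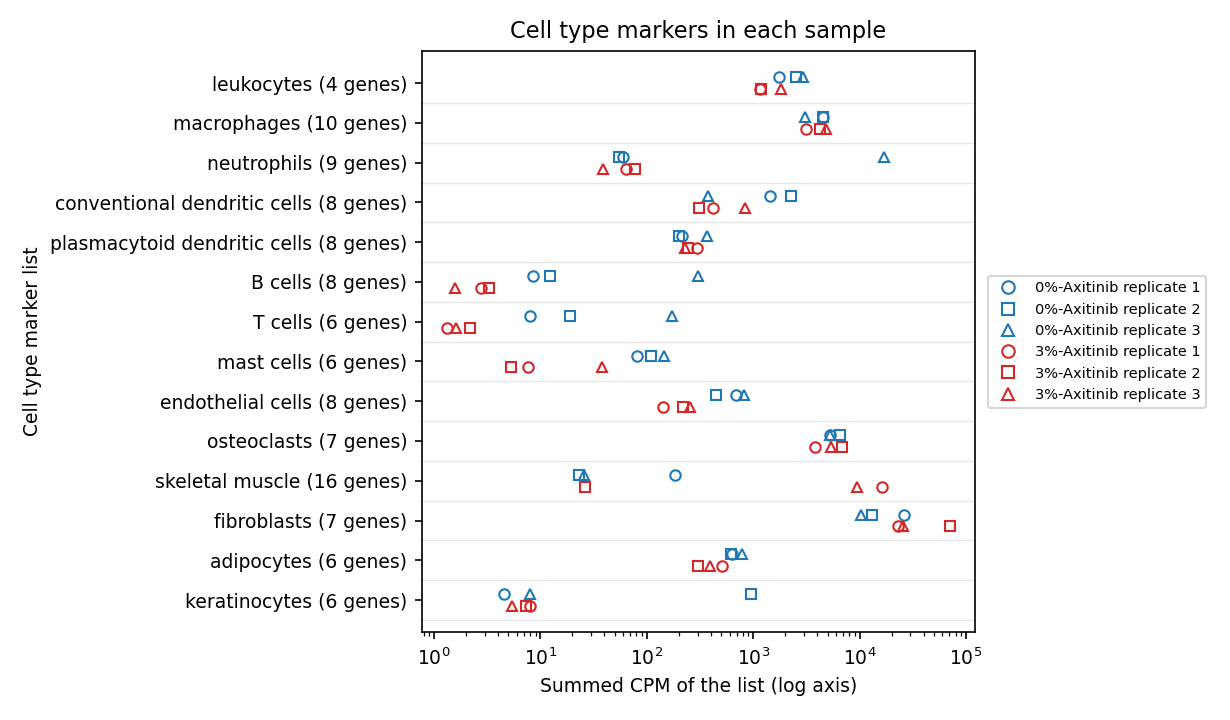
Summed CPM (log axis) of 14 lists of cell type markers, with a symbol for each of the 6 samples, blue for the 0%-Axitinib group and red for the 3%-Axitinib group. The neutrophil list stood at 16812 CPM in 0%-Axitinib replicate 3 and at no more than 76.7 CPM elsewhere, and the muscle list at 16386 and 9558 CPM in 3%-Axitinib replicates 1 and 3.

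All 10 members passed the filter on low counts, and none of them met a criterion in edgeR's quasi-likelihood test of all 6 samples with TMM scaling and the filter. With total counts in place of TMM, Tlr3 met the criterion of the study as lower, and without the filter Tlr8 did. The criterion of the study asks for a 1.5-fold change or more and p no higher than 0.05. The paper does not say whether its p-value was adjusted, and unadjusted p was used here. It names DESeq2 for normalization, whereas the criterion was applied here to edgeR's quasi-likelihood test. The shares of genes below are therefore not those of the paper. As lower, the criterion was met by 0 of 10 members, against 11.7% of the 15257 tested genes. As higher, it was met by 0 of 10, against 9.54%. With Benjamini-Hochberg adjustment over all tested genes, edgeR's quasi-likelihood test called 0 members and 1 gene in all (0.00655%) at an adjusted p of at most 0.05. No member had an unadjusted p of at most 0.05 in this test, and 3585 of the tested genes did. With DESeq2's Wald test the criterion was met by Tlr8 and with limma-voom by Tlr9, 1 member each. The fitted log2 fold change was below 0 for 10 of 10 members, against 51.8% of all tested genes, with a median of -0.47 over the members and of -0.03 over all tested genes. Scaling by total counts put the median of all tested genes at -0.16, and the members were again below 0 in 10 of 10. The groups did not overlap for 1 member, Tlr9, which was lower in every 3%-Axitinib sample, against 16.6% of the tested genes with that pattern. In tissue samples such as these, fewer cells of a type and less RNA per cell cannot be told apart.

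The calls depended on single libraries. Without 0%-Axitinib replicate 3, the library with the neutrophil and B cell markers, 4 members met the criterion as lower (Tlr3, Tlr4, Tlr8 and Tlr13), against 13.7% of the genes tested then. Without 3%-Axitinib replicate 2, Tlr1 and Tlr3 met it, 2 members against 9.28% of the genes tested then. Without any of the other 4 libraries, 0 members met it.

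Among the receptors of the cell surface, Tlr2 binds bacterial lipoproteins together with Tlr1 or Tlr6. In the order of the replicates, Tlr2 stood at 58.7, 36.7 and 48.2 CPM in the 0%-Axitinib group and at 31.9, 39.9 and 41.3 CPM in the 3%-Axitinib group. The highest sample was 0%-Axitinib replicate 1 and the lowest 3%-Axitinib replicate 1, and the groups overlapped through 0%-Axitinib replicate 2. The means were 47.9 ± 11.0 and 37.7 ± 5.09 CPM (SD, n = 3), and the log2 fold change of Tlr2 was -0.34 with a standard error of 0.23 and a 95% interval from -0.88 to 0.20 (edgeR's quasi-likelihood test with Benjamini-Hochberg adjustment, adjusted p = 0.387). That interval runs from a level 1.84-fold lower to one 1.15-fold higher in the 3%-Axitinib group.

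Tlr1, the partner of Tlr2 for triacylated lipoproteins, stood at 20.9, 30.7 and 24.6 CPM in the 0%-Axitinib group and at 14.1, 24.2 and 16.6 CPM in the 3%-Axitinib group. Replicates 1 and 3 of the 3%-Axitinib group lay below every 0%-Axitinib sample, and 3%-Axitinib replicate 2 lay among them. The means of Tlr1 were 25.4 ± 4.98 and 18.3 ± 5.30 CPM (SD, n = 3), with a log2 fold change of -0.47 (standard error 0.28, 95% interval -1.13 to 0.19; edgeR's quasi-likelihood test with Benjamini-Hochberg adjustment, adjusted p = 0.336). With 3%-Axitinib replicate 2 left out, Tlr1 had a log2 fold change of -0.72 with an adjusted p of 0.264 in the same edgeR quasi-likelihood test with Benjamini-Hochberg adjustment.

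Tlr6, the partner of Tlr2 for diacylated lipoproteins, was present at 18.1, 25.4 and 19.7 CPM in the 0%-Axitinib group and at 16.1, 16.4 and 19.0 CPM in the 3%-Axitinib group. Only 3%-Axitinib replicate 3 reached into the range of the 0%-Axitinib group for Tlr6. Its means were 21.03 ± 3.84 and 17.1 ± 1.60 CPM (SD, n = 3), with an estimated log2 ratio of the groups of -0.29 (standard error 0.22, 95% interval -0.82 to 0.24; edgeR's quasi-likelihood test with Benjamini-Hochberg adjustment, adjusted p = 0.448). Tlr1 and Tlr6 are neighbours on chromosome 5 and share sequence. Of the stretches of 50 bases in their exons, 454 were identical, 15.3% of those of Tlr1 and 12.5% of those of Tlr6. How reads from such stretches were assigned is not given in the sources used here, so the values of Tlr1 and Tlr6 are uncertain to that extent.

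Tlr4, the receptor for lipopolysaccharide, was measured at 43.2, 62.6 and 20.3 CPM in the 0%-Axitinib group and at 34.5, 28.2 and 21.5 CPM in the 3%-Axitinib group. Replicates 1 and 2 of the 0%-Axitinib group were higher than every 3%-Axitinib sample, whereas 0%-Axitinib replicate 3 was the lowest of all 6. The log2 fold change of Tlr4 was -0.58 (standard error 0.41, 95% interval -1.55 to 0.39; edgeR's quasi-likelihood test with Benjamini-Hochberg adjustment, adjusted p = 0.411), from means of 42.0 ± 21.2 and 28.1 ± 6.53 CPM (SD, n = 3). Without 0%-Axitinib replicate 3, it was -0.92 with an adjusted p of 0.0681 in edgeR's quasi-likelihood test with Benjamini-Hochberg adjustment.

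Among the receptors of endosomes, Tlr3 binds double-stranded RNA and is the member that does not use Myd88. Tlr3 was found at 16.7, 17.8 and 11.4 CPM in the 0%-Axitinib group and at 7.70, 13.6 and 7.58 CPM in the 3%-Axitinib group. Replicates 1 and 3 of the 3%-Axitinib group were the lowest samples, and 3%-Axitinib replicate 2 lay above 0%-Axitinib replicate 3, so the groups overlapped. The means were 15.3 ± 3.40 and 9.62 ± 3.43 CPM (SD, n = 3), and the log2 fold change of Tlr3 was -0.67 (standard error 0.34, 95% interval -1.46 to 0.13; edgeR's quasi-likelihood test with Benjamini-Hochberg adjustment, adjusted p = 0.273). Leaving out 0%-Axitinib replicate 3 gave -0.84 (adjusted p = 0.116 in edgeR's quasi-likelihood test with Benjamini-Hochberg adjustment), and leaving out 3%-Axitinib replicate 2 gave -0.999 (adjusted p = 0.230 in the same test).

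Tlr7, a receptor for single-stranded RNA, was measured at 38.7, 46.9 and 18.5 CPM in the 0%-Axitinib group and at 24.1, 38.4 and 33.6 CPM in the 3%-Axitinib group. Every 3%-Axitinib sample of Tlr7 lay within the range of the 0%-Axitinib group, which ran from replicate 3 at the low end to replicate 2 at the high end. Its means were 34.7 ± 14.6 and 32.0 ± 7.26 CPM (SD, n = 3), with a log2 fold change of -0.12 (standard error 0.37, 95% interval -0.98 to 0.75; edgeR's quasi-likelihood test with Benjamini-Hochberg adjustment, adjusted p = 0.869). Leaving out replicate 2 of the 0%-Axitinib group gave a log2 fold change of 0.16, and leaving out replicate 3 gave -0.42, so that the sign for Tlr7 rested on single libraries.

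Tlr8, which lies beside Tlr7 on the X chromosome and also binds single-stranded RNA or its breakdown products, showed the widest spread of the set within the 0%-Axitinib group. Tlr8 was measured at 28.7, 52.8 and 3.04 CPM in the 0%-Axitinib group (550, 905 and 56 reads) and at 7.48, 7.11 and 9.26 CPM in the 3%-Axitinib group (68, 78 and 160 reads). Replicates 1 and 2 of the 0%-Axitinib group were far above all 3%-Axitinib samples, and 0%-Axitinib replicate 3 was below all of them. Within the 0%-Axitinib group the highest value was 17.4-fold the lowest, while within the 3%-Axitinib group it was 1.30-fold. The means of Tlr8 were 28.2 ± 24.9 and 7.95 ± 1.15 CPM (SD, n = 3), and its log2 fold change of -1.82 had a standard error of 0.85 and a 95% interval from -3.82 to 0.18 (edgeR's quasi-likelihood test with Benjamini-Hochberg adjustment, adjusted p = 0.243). With 0%-Axitinib replicate 3 left out, Tlr8 had a log2 fold change of -2.35 with a standard error of 0.30, a 5.11-fold lower level, and the adjusted p was 0.0379 in edgeR's quasi-likelihood test with Benjamini-Hochberg adjustment. Without 0%-Axitinib replicate 2 it was -1.003 (adjusted p = 0.552 in the same test).

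Tlr9, the receptor for DNA with unmethylated CpG motifs, had the lowest mean level per kilobase of exons in both groups. Tlr9 was counted with 93, 95 and 67 reads in the 0%-Axitinib group (4.85, 5.54 and 3.64 CPM) and with 24, 3 and 41 reads in the 3%-Axitinib group (2.64, 0.273 and 2.37 CPM). All 3%-Axitinib samples lay below all 0%-Axitinib samples, and 3%-Axitinib replicate 2 was at the limit of detection, where 3 reads have an exact 95% Poisson interval of 0.0564 to 0.799 CPM. The counting intervals overlapped in 3 pairs of samples across the groups. That of 0%-Axitinib replicate 3 (2.82 to 4.62 CPM) overlapped those of 3%-Axitinib replicates 1 (1.69 to 3.93 CPM) and 3 (1.70 to 3.22 CPM). That of 0%-Axitinib replicate 1 (3.92 to 5.95 CPM) overlapped that of 3%-Axitinib replicate 1. Overlap of such intervals does not place a difference within counting error, and the order within these pairs was not tested. The other 6 pairs did not overlap. The means of Tlr9 were 4.68 ± 0.963 and 1.76 ± 1.30 CPM (SD, n = 3), and the estimated log2 fold change of -1.40 had a standard error of 0.72 (95% interval -3.09 to 0.29; edgeR's quasi-likelihood test with Benjamini-Hochberg adjustment, adjusted p = 0.277). With 3%-Axitinib replicate 2 left out, Tlr9 had a log2 fold change of -0.90, with an adjusted p of 0.318 in edgeR's quasi-likelihood test with Benjamini-Hochberg adjustment.

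Tlr13, a mouse receptor for bacterial ribosomal RNA, was measured at 128, 278 and 66.0 CPM in the 0%-Axitinib group and at 106, 121 and 117 CPM in the 3%-Axitinib group. The 3%-Axitinib samples of Tlr13 lay close together, inside the range of the 0%-Axitinib samples, of which replicate 2 was 4.21-fold replicate 3. The means were 157 ± 109 and 115 ± 7.78 CPM (SD, n = 3), and the log2 fold change was -0.46 (standard error 0.48, 95% interval -1.60 to 0.68; edgeR's quasi-likelihood test with Benjamini-Hochberg adjustment, adjusted p = 0.585). It was -0.83 without 0%-Axitinib replicate 3 (adjusted p = 0.132 in edgeR's quasi-likelihood test with Benjamini-Hochberg adjustment) and 0.24 without 0%-Axitinib replicate 2.

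Myd88, the adaptor that links the receptors and those of interleukin-1 and interleukin-18 to the IRAK kinases, was measured at 45.2, 43.0 and 81.6 CPM in the 0%-Axitinib group and at 66.1, 50.8 and 48.8 CPM in the 3%-Axitinib group. The highest Myd88 level was that of 0%-Axitinib replicate 3, where 6 receptors had their lowest level of the group, and the other 0%-Axitinib samples lay below every 3%-Axitinib sample. The means were 56.6 ± 21.7 and 55.2 ± 9.47 CPM (SD, n = 3), and the log2 fold change of Myd88 was -0.04 (standard error 0.29, 95% interval -0.73 to 0.66; edgeR's quasi-likelihood test with Benjamini-Hochberg adjustment, adjusted p = 0.950). Without 0%-Axitinib replicate 3, it was 0.32 (adjusted p = 0.248 in edgeR's quasi-likelihood test with Benjamini-Hochberg adjustment). Exons of Myd88 share 290 bases with Acaa1a on the other strand, and exons of Tlr3 share 381 bases with the antisense gene Gm45542. Whether the counting used the strand is not given in the sources used here, so reads of these stretches cannot be told apart.

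**Figure D2:**
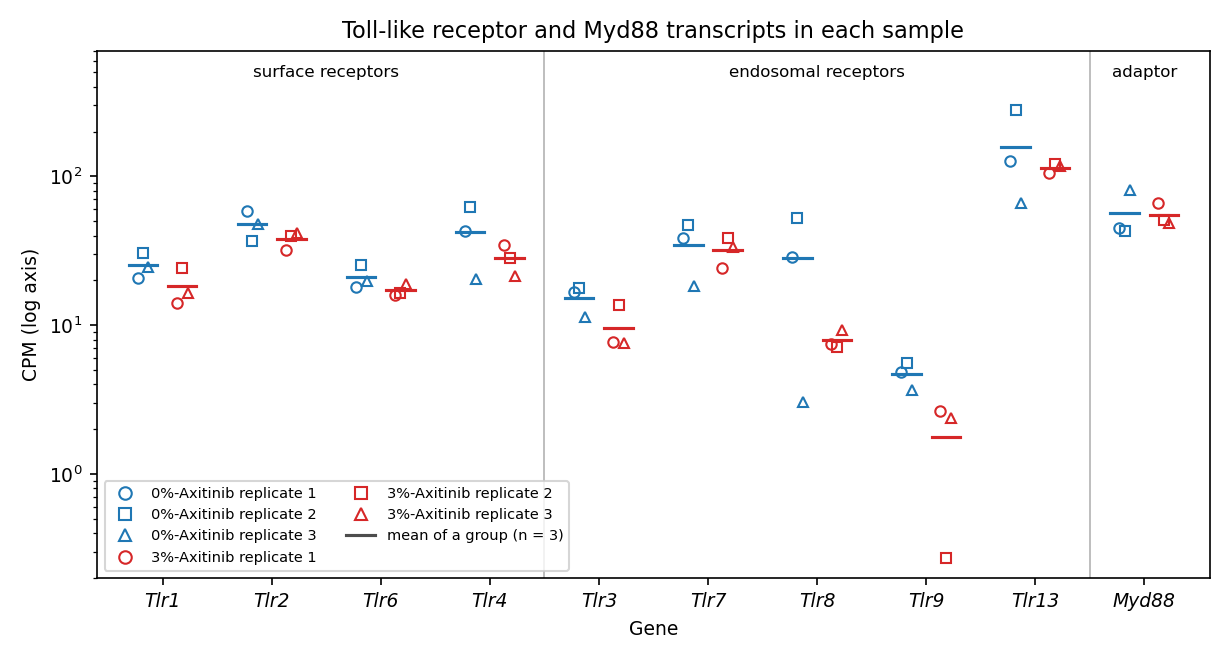
CPM (log axis) of the 10 members in each sample, with a symbol for each replicate, blue for the 0%-Axitinib group, red for the 3%-Axitinib group and a bar for the mean of each group (n = 3). The 0%-Axitinib samples of Tlr8 ran from 3.04 to 52.8 CPM around the 3%-Axitinib samples at 7.11 to 9.26 CPM, and Tlr9 alone had groups that did not overlap.

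**Figure D3:**
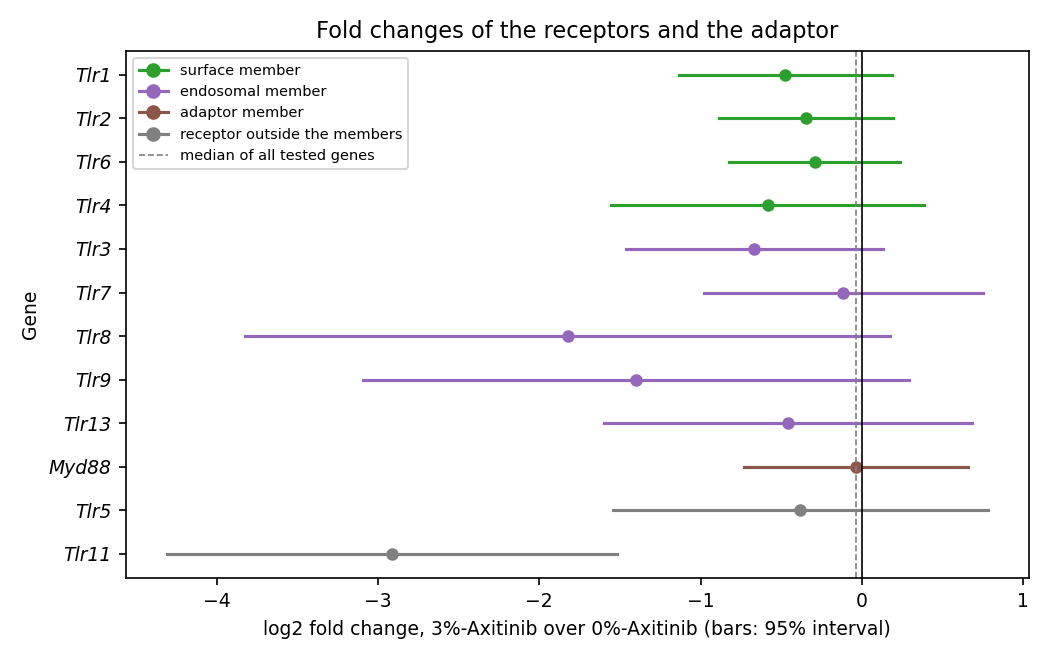
Log2 fold change of the 3%-Axitinib over the 0%-Axitinib group with its 95% interval from edgeR's quasi-likelihood test for the 10 members, coloured by role, and for Tlr5 and Tlr11, receptors outside the set. The intervals of all 10 members include 0, and that of Tlr11 runs from -4.31 to -1.52.

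Levels of different genes were compared as CPM per kilobase of annotated exons. In the 0%-Axitinib group, Tlr13 had the highest mean level, 36.5 ± 25.3 CPM per kilobase (SD, n = 3), followed by Myd88 at 22.0 ± 8.41 and Tlr2 at 15.9 ± 3.64. Over the 3 samples the ranges of Tlr13, Myd88 and Tlr2 overlapped from each to the next, so this order was not beyond the spread. A middle set of Tlr7, Tlr8, Tlr1, Tlr4 and Tlr6 had means between 8.50 and 5.64 CPM per kilobase, and each overlapped the next in this order. The highest Tlr8 sample, at 14.7, lay within the range of Tlr2, and the other 4 genes lay below that range. Tlr3 at 2.93 ± 0.654 and Tlr9 at 1.35 ± 0.277 CPM per kilobase stood below the others without overlap between neighbours, although the lowest Tlr8 sample, at 0.848, was below them. In the 3%-Axitinib group Tlr13 was again highest, at 26.6 ± 1.81 CPM per kilobase, overlapped by Myd88 at 21.4 ± 3.68, and Tlr2 followed at 12.5 ± 1.69 without overlap with either neighbour. Tlr8 took a lower place there, at 2.22 ± 0.322 CPM per kilobase, and its range overlapped that of Tlr3 at 1.85 ± 0.658. Tlr9 was lowest in both groups, at 0.507 ± 0.373 CPM per kilobase in the 3%-Axitinib group. Tlr13 made up 32.9%, 47.8% and 27.3% of the summed receptor level per kilobase in the 0%-Axitinib samples and 40.9%, 38.9% and 40.1% in the 3%-Axitinib samples.

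Surface and endosomal receptors were compared within each sample, which removes most of the effect of library scaling. The mean log2 CPM of the endosomal receptors minus that of the surface receptors was -0.27, 0.01 and -1.25 in the 0%-Axitinib group and -0.75, -1.20 and -0.64 in the 3%-Axitinib group. The 3%-Axitinib samples lay within the range of the 0%-Axitinib samples, in which replicate 3 had the lowest value of the endosomal receptors relative to the surface receptors. The group means of this difference were -0.50 ± 0.66 and -0.86 ± 0.30 (SD, n = 3), 0.36 lower on the log2 scale in the 3%-Axitinib group and less than the SD of the 0%-Axitinib group. Without Tlr9, whose group means are lowest, the difference was 0.33, 0.69 and -0.86 in the 0%-Axitinib group and -0.19, 0.00 and 0.00 in the 3%-Axitinib group, so that the distance between the group means shrank to -0.11. The median log2 fold change was -0.41 over the 4 surface receptors and -0.67 over the 5 endosomal receptors. The summed level of the surface receptors was 38.3, 39.4 and 32.3 CPM per kilobase in the 0%-Axitinib group and 25.3, 30.0 and 27.6 in the 3%-Axitinib group, without overlap between the groups. Taken alone, 0 of the 4 surface receptors had groups without overlap. Among single tested genes, 16.6% were lower without overlap, and no such share was taken for sums. The summed level of the endosomal receptors was 51.7, 95.8 and 24.0 CPM per kilobase in the 0%-Axitinib group and 34.8, 42.1 and 40.1 in the 3%-Axitinib group. Here the 3%-Axitinib samples lay inside the range of the others.

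The spread of the members followed the libraries. Within the 0%-Axitinib group, replicate 2 was highest for 8 of 10 members, with the exceptions of Tlr2 and Myd88, and replicate 3 was lowest for 6, which were all 5 endosomal receptors and Tlr4. The ratio of the highest to the lowest sample was larger in the 0%-Axitinib group for 7 of 10 members, with the exceptions of Tlr1, Tlr3 and Tlr9. Over the 6 samples, which share their libraries, and with no test, 6 of the 45 pairs of members had a Pearson correlation of log2 CPM above 0.8 and 3 had one below -0.8. The highest were Tlr8 with Tlr13 (r = 0.907), Tlr4 with Tlr8 (0.902) and Tlr7 with Tlr13 (0.867). Myd88 ran opposite to Tlr7 (r = -0.978), Tlr8 (-0.846) and Tlr13 (-0.820). Tlr2 had no correlation above 0.438 with another member. The single-stranded RNA receptors Tlr7 and Tlr8 differed in their proportion, and the ratio of their levels per kilobase was 1.19, 0.780 and 5.33 in the 0%-Axitinib group and 2.83, 4.74 and 3.18 in the 3%-Axitinib group.

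The genes most like 4 of the members were found by Pearson's correlation of log2 CPM over the 6 samples among all tested genes. For Tlr2 they were Parp8 (r = 0.981), Adcy4 (0.979) and Mfsd6 (0.967). For Tlr7 they were Lca5 (0.996), Havcr2 (0.991), which encodes the immune receptor TIM-3, and Mapre2 (0.987). For Tlr9 they were Socs7 (0.999), Mettl3 (0.991), an RNA methyltransferase gene, and Gzmm (0.990), a granzyme gene. Tlr9 stood at 0.273 CPM in 3%-Axitinib replicate 2, the limit of detection, and between 2.37 and 5.54 CPM elsewhere. The part of that library in these values was not tested. For Myd88 they were Lins1 (0.985), the chemokine gene Ccl4 (0.984) and Stip1 (0.982). With 6 samples and 15257 genes, correlations of this size describe the samples at hand.

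Markers of the cells known for these receptors were measured beside them. By the criterion, 11.7% of all tested genes were lower and 9.54% were higher. Of the 10 macrophage genes, 0 met the criterion in either direction, with a median log2 fold change of -0.14 and summed levels of 4517, 4584 and 3057 CPM in the 0%-Axitinib group and 3144, 4292 and 4854 CPM in the 3%-Axitinib group, led by Cd68. Of the 8 conventional dendritic cell genes, led by Itgax, 6 were lower, with summed levels of 1443, 2288 and 375 CPM in the 0%-Axitinib group and 421, 312 and 834 CPM in the 3%-Axitinib group. With at least 10 counts asked in every sample, 3 dendritic cell genes of this list were tested and 1 was lower. Of the plasmacytoid dendritic cell genes, led by Bst2, 1 of 5 tested was lower and 1 higher, with sums of 213, 199 and 369 CPM against 298, 244 and 229 CPM. The higher gene, Cox6a2, was measured at 0.992, 0.816 and 2.72 CPM in the 0%-Axitinib group and at 103, 1.73 and 52.8 CPM in the 3%-Axitinib group, high only in the 2 libraries rich in muscle markers, and Klk1 was at 0 in all 3%-Axitinib samples. All 5 tested B cell genes were lower, and Cr2 was at 0 in all 3%-Axitinib samples. With at least 10 counts asked in every sample, 0 B cell and 0 T cell genes were tested. Genes this low in the 3%-Axitinib group can pass the filter through the 0%-Axitinib group alone, so counts of lower genes among those tested lean to lower. With limma-voom 1 B cell gene was lower, with DESeq2 2 and with the replicate block 3. Of the 7 tested neutrophil genes, 4 met the criterion as lower through 0%-Axitinib replicate 3, with groups that overlapped. Without that library or without any 3%-Axitinib library 0 did, and without 0%-Axitinib replicate 1 or 2 all 8 tested then did. Limma-voom and the replicate block gave 0 lower neutrophil genes and DESeq2 gave 1. All 3 tested T cell genes were lower, with sums, led by Cd3d, of 8.04, 18.8 and 172 CPM against 1.32, 2.19 and 1.62 CPM, and Cd8a was at 0 in all 3%-Axitinib samples. All 6 mast cell genes were lower, with sums, led by Tpsb2, of 81.2, 110 and 145 CPM against 7.70, 5.28 and 37.9 CPM. Of the 4 general leukocyte genes, led by Laptm5, 1 was lower, with sums of 1742, 2516 and 2944 CPM against 1152, 1195 and 1812 CPM. All 8 endothelial genes, led by Pecam1, were lower, with sums of 684, 447 and 824 CPM against 142, 217 and 256 CPM. The 7 osteoclast genes, led by Ctsk, gave 0 calls and sums of 5242, 6576 and 5268 CPM against 3841, 6859 and 5346 CPM. Total counts, DESeq2 and no filter each gave 2 lower osteoclast genes. Limma-voom and the replicate block each gave 1, and fits with a library left out 0 to 1. Of the 6 adipocyte genes, led by Fabp4, 2 were lower and 1 higher, with sums of 626, 614 and 793 CPM against 507, 306 and 390 CPM. With a library left out, 2 to 6 B cell, 2 to 6 T cell, 5 to 6 mast cell, 5 to 8 endothelial, 6 to 7 conventional dendritic cell, 0 to 3 plasmacytoid dendritic cell, 2 to 5 adipocyte and 0 to 4 keratinocyte genes were lower, and 8 to 15 muscle and 0 to 2 fibroblast genes were higher. The part of these cell types in the levels of the receptors was not tested.

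The mean log2 CPM of each marker list was set beside each member by Pearson's correlation over the 6 samples, which share their libraries, with no test, and all values beyond 0.8 in either direction are given here. Tlr1 had r = -0.954 with the skeletal muscle list and 0.843 with the osteoclast list, and Tlr3 had -0.822 with skeletal muscle. The libraries rich in muscle markers, 3%-Axitinib replicates 1 and 3, were the lowest samples of Tlr1 and Tlr3. Tlr6 had r = 0.922 with keratinocytes and 0.804 with leukocytes, and Tlr9 had 0.951 with adipocytes and 0.852 with conventional dendritic cells. The keratinocyte sum was 950 CPM in 0%-Axitinib replicate 2 and between 4.54 and 7.93 CPM elsewhere. Tlr9 was at the limit of detection in 3%-Axitinib replicate 2, with 3 reads. The part of these single libraries was not tested. Tlr7 had r = 0.971 with macrophages, -0.860 with plasmacytoid dendritic cells and -0.820 with neutrophils. The neutrophil sum was 16812 CPM in 0%-Axitinib replicate 3 and between 38.4 and 76.7 CPM elsewhere. Tlr8 had r = 0.816 with macrophages and -0.883 with plasmacytoid dendritic cells, and Tlr4 had -0.867 with the latter. The plasmacytoid list holds Cox6a2, which was high only in the libraries rich in muscle markers, and its part in these values was not tested. Myd88 had r = -0.973 with macrophages, 0.856 with neutrophils and 0.824 with plasmacytoid dendritic cells.

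The 3 other Toll-like receptors of the mouse had few reads. Tlr5, the receptor for flagellin, was measured at 6.68, 5.25 and 2.01 CPM in the 0%-Axitinib group and at 4.29, 3.01 and 3.42 CPM in the 3%-Axitinib group, and the groups overlapped (log2 fold change -0.38, 95% interval -1.55 to 0.78). Tlr11, a receptor for profilin of protozoa, was counted with 30, 22 and 45 reads in the 0%-Axitinib group and with 1, 2 and 6 reads in the 3%-Axitinib group. Tlr11 met the criterion as lower, with a log2 fold change of -2.91 and a standard error of 0.59 (edgeR's quasi-likelihood test with Benjamini-Hochberg adjustment, adjusted p = 0.0965). Tlr12, the partner of Tlr11, was counted with 3, 18 and 211 reads in the 0%-Axitinib group and with 0, 1 and 2 reads in the 3%-Axitinib group, with most of its reads in 0%-Axitinib replicate 3. Tlr12 did not pass the filter in the fit of all samples. It was lower by the criterion without the filter and in the 4 fits with a library left out in which it passed, those without 0%-Axitinib replicate 1 or any 3%-Axitinib library.

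Around the receptors, 3 of 7 coreceptor and ligand-transfer genes were lower and 1 was higher by the criterion, with a median log2 fold change of -0.68, and 2 to 4 were lower with any 1 library left out. Without 0%-Axitinib replicate 2, the median was -0.07. Cd14, which passes lipopolysaccharide to Tlr4, was measured at 368, 353 and 107 CPM in the 0%-Axitinib group and at 543, 328 and 521 CPM in the 3%-Axitinib group, and Ly96 (MD-2), the partner of Tlr4, at 12.6, 17.1 and 9.67 CPM and at 11.8, 14.4 and 9.21 CPM. Neither met the criterion. Lbp, the serum protein that loads Cd14, was higher in every 3%-Axitinib sample (140 ± 68.6 and 556 ± 297 CPM, SD, n = 3), with a log2 fold change of 1.99. Cd36, a scavenger receptor that works with Tlr2 and Tlr6, the fungal receptor Clec7a and Ly86, the partner of Cd180, were lower, with log2 fold changes of -1.74, -1.65 and -0.86. The groups did not overlap for Clec7a and Ly86, whereas Cd36, at 1392, 3367 and 469 CPM in the 0%-Axitinib group and 443, 409 and 711 CPM in the 3%-Axitinib group, overlapped and had a log2 fold change of -0.84 without 0%-Axitinib replicate 2. Among 9 genes for chaperones, trafficking and cleavage of the receptors, 2 were lower and 0 higher, and 1 to 2 were lower and 0 to 1 higher with any 1 library left out. Their median log2 fold change was -0.20, and 0.22 without 0%-Axitinib replicate 2, and total counts gave 3 lower. Unc93b1, which carries the endosomal receptors to their compartment, was measured at 396, 445 and 474 CPM in the 0%-Axitinib group and at 214, 202 and 377 CPM in the 3%-Axitinib group, without overlap, and it was lower by the criterion (log2 fold change -0.73, standard error 0.31), a call kept in 1 of 6 fits with a library left out. Hsp90b1 (gp96), the chaperone of most of the receptors, was lower with a log2 fold change of -1.03 (standard error 0.24), and Ctsb, a lysosomal protease gene with the highest CPM of the list, was not called.

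Below the receptors, 1 of 5 adaptor genes other than Myd88 was lower, Pik3ap1 (log2 fold change -2.25). This call was lost with limma-voom, with the replicate block and without 0%-Axitinib replicate 2 or 3%-Axitinib replicate 1 or 2, each of which left 0 adaptor genes lower. Tirap, which bridges Tlr2 and Tlr4 to Myd88, Ticam1 (TRIF), the adaptor of Tlr3, and Ticam2, which bridges Tlr4 to Ticam1, had log2 fold changes of -0.41, 0.07 and -0.57 and did not meet the criterion. Of 16 kinase and ubiquitin ligase genes, 8 were lower and 1 higher, against 11.7% and 9.54% of all tested genes, with a median log2 fold change of -0.58, and 6 to 8 were lower with any 1 library left out, and 10 were lower and 0 higher with total counts. Irak2, a kinase of the Myd88 complex, was measured at 62.9 ± 13.1 and 31.3 ± 1.85 CPM (SD, n = 3), and Chuk and Tab3, a kinase and a subunit of the step that activates NF-kB, were lower with log2 fold changes of -1.07 and -1.01. Irak4, the first kinase to bind Myd88, and Traf6, the ubiquitin ligase that follows, lay lower in every 3%-Axitinib sample with log2 fold changes of -0.56 and -0.51, short of the fold that the criterion asks. Tab1 was higher, with a log2 fold change of 0.63, and Tab2 was the gene of this list with the highest CPM and lower (-0.83). Of 12 transcription factor genes, 3 were lower, Irf1 (-1.42), the NF-kB subunit gene Rel (-1.36) and Irf8 (-0.73), and Jun, with the highest CPM, was not called. Irf1 stood at 55.3, 51.1 and 164 CPM in the 0%-Axitinib group and at 32.8, 33.1 and 35.1 CPM in the 3%-Axitinib group, and its log2 fold change was -0.66 without 0%-Axitinib replicate 3. With a library left out, 1 to 4 of these factors were lower, with 1 when either 3%-Axitinib replicate 1 or 2 was left out, and total counts gave 5.

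Among 12 negative regulators, Sigirr, Tnfaip3 and Cyld were lower and Irak3 and Il1rl1 were higher, with Dusp1 the gene of the highest CPM. With a library left out, 1 to 3 regulators were lower and 1 to 2 higher, and limma-voom gave 1 lower. Of 26 inducible targets, 20 were tested, 4 were lower and 2 were higher. The lower targets were Tnf, Il1b, Cxcl10 and Ccl5, which were highest in 0%-Axitinib replicate 3, and without that library 0 targets were lower and 3 were higher. With limma-voom 0 were lower. Leaving out a 3%-Axitinib library gave 1 lower target. It was Cxcl10 without replicate 3, and a target other than these 4 without replicate 1 or 2. Saa3, an acute-phase gene, rose by the criterion from 27.2 ± 13.04 to 310 ± 258 CPM (SD, n = 3), Ccl2 was higher too, and Lcn2 was not called. Lcn2 had the highest mean CPM of the list through 0%-Axitinib replicate 3 alone (1988 CPM), and stood between 2.35 and 26.0 CPM in the other samples. Ifnb1 had no read in any sample. Of 9 genes for endogenous ligands, S100a9 was lower and Vcan higher, with S100a9 at 10660 CPM in 0%-Axitinib replicate 3 and between 6.08 and 43.2 CPM elsewhere, and Fn1, with the highest CPM, was not called. The lower call was lost without 0%-Axitinib replicate 3 or any 3%-Axitinib library and with DESeq2, limma-voom or the replicate block, and 1 to 3 ligand genes were higher with a library left out. Of 5 tested genes for other receptors that use Myd88, Il18r1 was lower, and Il1rl2, with the highest CPM, was not called. With limma-voom, the replicate block or without 3%-Axitinib replicate 2 or 3, 0 of these receptors were lower. Of 9 other pattern recognition receptors, Nod2, Mb21d1 (cGAS) and Ddx58 (RIG-I) were lower, and Clec4d, with the highest CPM, was higher. The higher call was lost in 5 of the 6 fits with a library left out and with total counts, which gave 6 lower and 0 higher.

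Of the 34 genes outside the set that are named above with a call in the pathway lists, 17 kept it in every fit with a library left out, namely Tlr11, Clec7a, Ly86, Lbp, Hsp90b1, Tab2, Chuk, Tab3, Irak2, Rel, Cyld, Il1rl1, Saa3, Vcan, Nod2, Mb21d1 and Ddx58. The other 17 lost it in at least 1 of these fits.

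The members lie on 6 chromosomes of GRCm38 in the GENCODE annotation. Tlr7 (167304929 to 167330558) and Tlr8 (167242696 to 167264329) are neighbours on the minus strand of chromosome X, which also holds Tlr13 (106143204 to 106160493, plus strand). Tlr1 (64924679 to 64933563) and Tlr6 (64952031 to 64960097) are neighbours on the minus strand of chromosome 5. Tlr9 (106222598 to 106226883, plus strand) and Myd88 (119335934 to 119341411, minus strand) share chromosome 9. Tlr2 lies on chromosome 3 (83836272 to 83841767, minus strand), Tlr4 on chromosome 4 (66827584 to 66930284, plus strand) and Tlr3 on chromosome 8 (45395665 to 45411080, minus strand).

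Promoter sequences of RefSeq (GRCm38.p6), which span the start of a transcript and lie mostly before it, were matched by symbol for 8 members with 10 promoters, none for Tlr4 and Tlr7. They were searched on both strands for 4 motifs of transcription factors of myeloid and inflammatory genes. The PU.1 motif GAGGAA was present in 4 of 10 member promoters (Tlr1, Tlr8, Tlr9 and Tlr13), against 28.3% of 32851 promoters. The interferon-stimulated response motif GAAANNGAA was present in 3 (Myd88, Tlr6 and Tlr8), against 8.56%, the NF-kB motif in 2 (Tlr2 and Tlr3), against 8.46%, and the AP-1 motif TGANTCA in 1 (Tlr9), against 7.81%. In Tlr2, matches of the NF-kB motif overlapped on both strands. Such matches describe the letters of the window and are not evidence of binding. The promoters of Tlr2 and Tlr13, the surface and the endosomal receptor with the highest mean CPM per kilobase, and of Tlr8 and Tlr9, with the lowest log2 fold changes, are given with matches in capitals, on the strand of the gene.
Tlr2 promoter, chr3:83841559-83841858, strand -: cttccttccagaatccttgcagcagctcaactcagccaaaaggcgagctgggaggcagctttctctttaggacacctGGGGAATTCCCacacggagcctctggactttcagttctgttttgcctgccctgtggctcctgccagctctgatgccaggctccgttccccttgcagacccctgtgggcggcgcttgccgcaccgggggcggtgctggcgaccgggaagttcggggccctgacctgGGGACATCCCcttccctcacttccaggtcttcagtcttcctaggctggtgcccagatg
Tlr13 promoter, chrX:106143025-106143324, strand +: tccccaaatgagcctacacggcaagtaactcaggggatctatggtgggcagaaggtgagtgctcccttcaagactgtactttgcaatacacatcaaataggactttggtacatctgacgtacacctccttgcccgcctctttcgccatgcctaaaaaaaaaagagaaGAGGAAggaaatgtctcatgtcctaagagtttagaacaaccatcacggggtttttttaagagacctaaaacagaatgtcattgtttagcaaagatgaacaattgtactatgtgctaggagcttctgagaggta
Tlr8 promoter, chrX:167264280-167264579, strand -: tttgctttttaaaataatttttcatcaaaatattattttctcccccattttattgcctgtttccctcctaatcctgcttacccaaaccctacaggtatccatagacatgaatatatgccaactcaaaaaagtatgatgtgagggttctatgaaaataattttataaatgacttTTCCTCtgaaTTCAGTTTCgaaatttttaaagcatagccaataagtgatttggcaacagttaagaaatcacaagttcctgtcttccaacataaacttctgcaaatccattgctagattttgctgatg
Tlr9 promoter, chr9:106222348-106222647, strand +: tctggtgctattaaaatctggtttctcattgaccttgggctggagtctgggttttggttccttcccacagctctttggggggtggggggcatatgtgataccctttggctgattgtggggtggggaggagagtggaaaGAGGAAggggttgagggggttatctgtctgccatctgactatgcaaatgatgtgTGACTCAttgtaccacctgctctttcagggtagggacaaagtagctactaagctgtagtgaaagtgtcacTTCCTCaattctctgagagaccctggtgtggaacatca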

How the data were processed

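RNA of 6 samples of murine tissue around BEC was sequenced by the authors after poly(A) selection on an Illumina instrument. The authors filtered the reads with Fastp, mapped them to mm10 with STAR (version 2.5.2b in the submitters' processing notes) and deposited raw read counts per gene symbol, without normalization. The annotation release and the use of strand are not given in the sources used here. Of the lines of the table, 4 held reads given to no gene and were left out. Ambiguous reads made up 3.55% to 5.74% and multimapping reads 2.71% to 6.65% of a library. The groups were compared with edgeR 4.0.16 (R 4.3.3), using filterByExpr (minimum count 10, minimum total 15), TMM scaling and the quasi-likelihood test, with p-values adjusted by Benjamini-Hochberg for all tested genes. CPM used the TMM-scaled library sizes, and log2 CPM a prior count of 2. Standard errors and 95% intervals were taken from the quasi-likelihood F statistic and its degrees of freedom. Exon lengths came from GENCODE M21. Alternatives used limma 3.58.1 (voom) and DESeq2 1.42.0, other scalings, filters and thresholds, the replicate number as a block, and each library left out. The pipeline was tested on simulated data. Figures were drawn with matplotlib 3.10.9. The members and lists were chosen with earlier results of these data known. Named from each pathway list were its gene with the highest mean CPM, up to 3 genes per direction that met the criterion with the largest fold changes and a mean of at least 1 CPM, and the direct partners of the members Ly96, Cd14, Unc93b1, Tirap, Ticam1, Ticam2, Irak4 and Traf6. Tnf and Cox6a2 were added after their values were seen. From each marker list the gene with the highest mean CPM and markers at 0 were named.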

Additional observations from a re-analysis of the deposited data

How the results depend on the processing

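Of 139 values of the members' log2 fold changes under other settings, 121 kept their sign and did not meet the criterion, 10 kept their sign and met it, and 8 were reversed. Sizes moved among those that kept their sign, such as Tlr8 from -1.82 to -1.03 with limma-voom and Tlr4 from -0.58 to -0.19 without 0%-Axitinib replicate 2. The reversed values were those of Myd88 with limma-voom (0.0125) and with the replicate block (0.0173), and others among the values with a library left out, which ran from -0.20 to 0.32 for Myd88, from -0.42 to 0.16 for Tlr7 and from -0.83 to 0.24 for Tlr13. Tlr8 ran from -2.35 to -1.003. The number of members lower by the criterion was 0 in the fit of all samples, 1 with total counts (Tlr3), DESeq2 (Tlr8), limma-voom (Tlr9) and no filter (Tlr8), and 0 to 4 with a library left out. At the adjusted p limit of 0.05, the genes called numbered 1 with edgeR's quasi-likelihood test with Benjamini-Hochberg adjustment, 15 without the filter, 2 with the replicate block, 0 to 1252 with a library left out, 2 with limma-voom and 1960 with DESeq2. Genes higher by the criterion numbered 1456, and 1055 to 2274 with a library left out. Total counts gave 2448 lower and 989 higher genes, against 1785 and 1456, and the replicate block 1354 and 1249. The difference of the mean log2 fold change of endosomal and surface receptors was -0.47, and -0.67 to -0.20 with a library left out. For each tested gene, the deviation of log2 CPM from the group mean was correlated between a sample of each group. Replicates of the same number had correlations of 0.182, -0.115 and -0.174, and pairs of other numbers ran from -0.221 to 0.212. With 3 samples in a group, such values cannot tell whether replicates of the same number share a batch. Of 154 list medians, 21 moved. The cause was not tested.

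With 3 samples in a group, the 95% intervals leave room for changes of more than 1.5-fold in every member. Samples that share a mouse, if any, are not known, and the tests treat all as independent. Libraries differed in unmapped reads and in markers of muscle, skin and blood cells. The reading of the untreated label as the 0%-Axitinib group underlies every comparison. RNA levels were measured, and protein levels and signalling of the receptors were not.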
